A study of Arabidopsis thaliana with 24 samples.

Results

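Class III peroxidases are secreted plant enzymes that act in the cell wall. They were followed here by their AGI locus identifiers, from a list of 60 genes, of which 57 had a row among the 20450 genes of the deposited table and 3 (AT1G24110, AT3G50990 and AT5G58390) had none. Expression was measured by RNA-seq in root tip sections of *Arabidopsis thaliana* wild-type (Col-0) and *stop1* seedlings, each after 16 h in 6 media, with 2 libraries per genotype and medium and 24 in all. The *stop1* line is a single T-DNA insertion line of *STOP1*, which encodes a zinc finger transcription factor known for acid and aluminum tolerance, and sections of many seedlings were pooled for each treatment. The control medium held 1 mM Pi at pH 6 (+Pi_pH6). Low Pi medium held 0 mM Pi at pH 6 (-Pi_pH6), low pH medium 1 mM Pi at pH 5 (+Pi_pH5), and the combined medium 0 mM Pi at pH 5 (-Pi_pH5). The +Al medium was 0 mM Pi at pH 5 with AlCl3, given as 100 µM in the labels and as a higher concentration in the study's methods. The ++Fe medium held 0.1 mM Pi at pH 5 with 0.1 mM added FeSO4, so it differed from -Pi_pH5 in Pi as well as in Fe.

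These enzymes use hydrogen peroxide to oxidise phenolic substrates, which cross-links lignin monomers and wall proteins, and in another cycle they can produce reactive oxygen species that loosen the wall or take part in the oxidative burst of defence. The peroxide comes in part from the RBOH NADPH oxidases of the plasma membrane. In the root, different members are known from growing root hairs, from the Casparian strip of the endodermis, from lignifying xylem and from responses to wounding and pathogens.

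The 24 libraries held 17027929 to 30516150 reads on the genes of the table, so that 1 read was worth 0.0326 to 0.0572 CPM. *STOP1* itself lay between 108 and 177 CPM in the 12 wild-type libraries and between 28.7 and 57.8 CPM in the 12 *stop1* libraries, with no overlap. Of 6 shoot markers fixed as a check for other tissue, 4 were in the table, and their summed level ran from 10.7 to 819 CPM, with the highest values in single libraries of wild-type +Pi_pH5 and +Al. The study's methods describe the replicates as independent biological samples, which the labels do not state. With 2 in a group the p-values rest on a spread pooled over all 12 groups. The 2 wild-type +Al libraries differed more in the peroxidases than other pairs did, with a median absolute log2 difference of 0.55 and 9 members over 2-fold apart, against 0.21 and 1 member in *stop1* +Al. Wild-type -Pi_pH5, with which the wild-type metal media are compared below, had a median of 0.25 and 8 members over 2-fold apart.

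The family spanned a wide range of levels. Averaged over the 24 libraries, 2 members lay above 1000 CPM, 21 between 100 and 1000, 22 between 10 and 100, 9 between 1 and 10, and 3 below 1. The median member was at 63.7 CPM, against 17.7 CPM over all genes of the table. The 6 most abundant members, PRXR1 (AT4G21960), AT3G32980, AT2G38380, AT1G49570, PRXCB (AT3G49120) and AT5G19890, held 53.7% of the family's summed mean CPM. Per kb of exon the order of the first pair turned, with 1239 CPM per kb for AT3G32980 and 1068 for PRXR1. At the other end stood AT1G14550 (0.95 CPM), AT3G03670 (0.91) and PRXCA (AT3G49110, 0.61), the last a close relative of PRXCB that is known from the defence oxidative burst. AT1G05240 and AT1G05250 share sequence over 56.8% and 100% of their exonic 50-base stretches, so reads could not be placed well between them and their counts are uncertain. The members' summed level ran from 9261 to 14200 CPM over the libraries. It was lowest in the 2 libraries of *stop1* +Al, at 9663 and 9261 CPM, against 12540 and 13580 CPM in *stop1* -Pi_pH5.

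The upstream sequences are shown for 6 of the 21 members whose response to Al differed between the genotypes, as described below. They were chosen after the values were seen: 4 fell in *stop1* and 2 rose. The 250 bases before the annotated start of each of 57 members were searched on both strands for the W-box (TTGACC or TTGACT), the site of WRKY factors, and for the core of the root hair element (TG and CACG with 4 or 5 bases of any kind between them), known from promoters of root hair genes. Capitals mark the matches to either motif, which read as AGTCAA or start with CGTG where they lie on the other strand, and all sequences are from RefSeq TAIR10.1, written 5′ to 3′ in the direction of the gene. RHS19 (chr5:26894528-26894777, + strand), AT4G26010 (chr4:13200164-13200413, + strand), AT1G30870 (chr1:10991228-10991477, + strand) and RHS18 (chr5:7426060-7426309, + strand) are the root hair peroxidases with a match to the root hair element.
RHS19: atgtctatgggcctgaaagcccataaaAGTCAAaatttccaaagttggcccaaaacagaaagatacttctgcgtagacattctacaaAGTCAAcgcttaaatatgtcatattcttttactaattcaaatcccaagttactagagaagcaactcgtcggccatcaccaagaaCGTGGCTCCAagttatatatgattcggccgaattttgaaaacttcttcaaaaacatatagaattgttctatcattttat
AT4G26010: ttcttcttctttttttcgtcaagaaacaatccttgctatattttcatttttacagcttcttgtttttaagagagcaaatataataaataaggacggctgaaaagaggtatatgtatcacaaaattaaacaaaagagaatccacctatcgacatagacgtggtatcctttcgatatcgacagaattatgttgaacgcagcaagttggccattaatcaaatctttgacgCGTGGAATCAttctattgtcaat
AT1G30870: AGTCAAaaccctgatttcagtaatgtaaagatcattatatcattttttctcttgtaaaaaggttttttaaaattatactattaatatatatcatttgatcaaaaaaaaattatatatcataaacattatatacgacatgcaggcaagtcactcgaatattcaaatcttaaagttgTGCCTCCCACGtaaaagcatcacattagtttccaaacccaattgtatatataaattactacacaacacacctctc
RHS18: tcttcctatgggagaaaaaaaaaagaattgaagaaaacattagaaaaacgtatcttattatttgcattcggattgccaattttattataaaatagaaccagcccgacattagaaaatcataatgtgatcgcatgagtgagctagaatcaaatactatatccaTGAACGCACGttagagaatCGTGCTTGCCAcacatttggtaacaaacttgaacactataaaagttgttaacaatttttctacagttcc
PRX52 (chr5:1580876-1581125, - strand) and AT4G36430 (chr4:17206034-17206283, - strand) rose, the first with no match in this window and the second with 2 W-boxes.
PRX52: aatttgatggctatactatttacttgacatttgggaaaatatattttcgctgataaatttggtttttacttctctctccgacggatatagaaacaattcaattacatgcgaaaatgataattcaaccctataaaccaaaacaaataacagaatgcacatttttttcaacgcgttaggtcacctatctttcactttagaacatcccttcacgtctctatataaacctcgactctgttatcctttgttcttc
AT4G36430: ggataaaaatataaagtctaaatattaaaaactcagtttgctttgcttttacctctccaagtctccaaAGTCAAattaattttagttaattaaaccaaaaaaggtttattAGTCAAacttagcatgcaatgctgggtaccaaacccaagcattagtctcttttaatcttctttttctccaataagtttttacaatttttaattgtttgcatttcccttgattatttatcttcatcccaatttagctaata
The root hair core was found upstream of 4 of the 7 root hair peroxidases, of 10 of all 57 members (17.5%), and in 9.4% of the 19826 windows of protein-coding genes in the table. The 4 root hair peroxidases shown are those with the match. AT1G34510 and AT3G49960, whose response to Al also differed between the genotypes, had no match to it and are not shown. A W-box was found in 18 of 57 members (31.6%) and in 28.7% of all windows, and the G-box CACGTG in 0 of 57 and in 7.23%. A match is a description of letters and not evidence of a bound site.

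Low Pi and low pH, alone, moved no peroxidase past the threshold in wild-type. In -Pi_pH6 against +Pi_pH6, 0 of 57 members were called by limma (adjusted p under 0.05) where 0.166% of all genes were, 3 had an unadjusted p under 0.05, and edgeR's tests and DESeq2 called 0. For +Pi_pH5 the limma count was also 0, against 0.0293% of all genes, with 14 members under an unadjusted 0.05, 0 calls by edgeR's quasi-likelihood test, 4 by its likelihood ratio test and 5 by DESeq2. Without wild-type +Pi_pH6 replicate 1 limma called 4.

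The combination -Pi_pH5 raised 2 members and lowered 2 in wild-type, where 0.474% of all genes rose and 0.963% fell. AT3G49960, a peroxidase enriched in root hair cells, was at 87.2 and 73.3 CPM in the control and at 196 and 261 CPM in -Pi_pH5, a log2 difference of 1.49 ± 0.22 (SE, adjusted p = 0.0013, limma). RHS18 (AT5G22410), named for its root hair specific expression, was at 64.3 and 34.7 CPM in the control and at 108 and 122 CPM in -Pi_pH5 (log2 difference 1.26 ± 0.27, adjusted p = 0.024). Both genes had non-overlapping groups, which is likely for members called on these same libraries. AT3G01190 went the other way, from 285 and 376 CPM to 164 and 122 CPM (-1.21 ± 0.26, adjusted p = 0.027). The low member AT3G03670 was at 1.63 and 6.77 CPM in the control and at 0.28 and 0.34 CPM in -Pi_pH5 (-1.79 ± 0.34, adjusted p = 0.012). Its 2 control libraries were far apart. As labelled, it was above 1 CPM in every library of the pH 6 media and below 1 CPM in every library at pH 5, in both genotypes. For *stop1* this rests in part on the +Pi labels, which are uncertain, as described below. These calls are not firm to single libraries: 1 member was called without wild-type +Pi_pH6 replicate 2, and 1 without either -Pi_pH5 library.

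**Figure D1:**
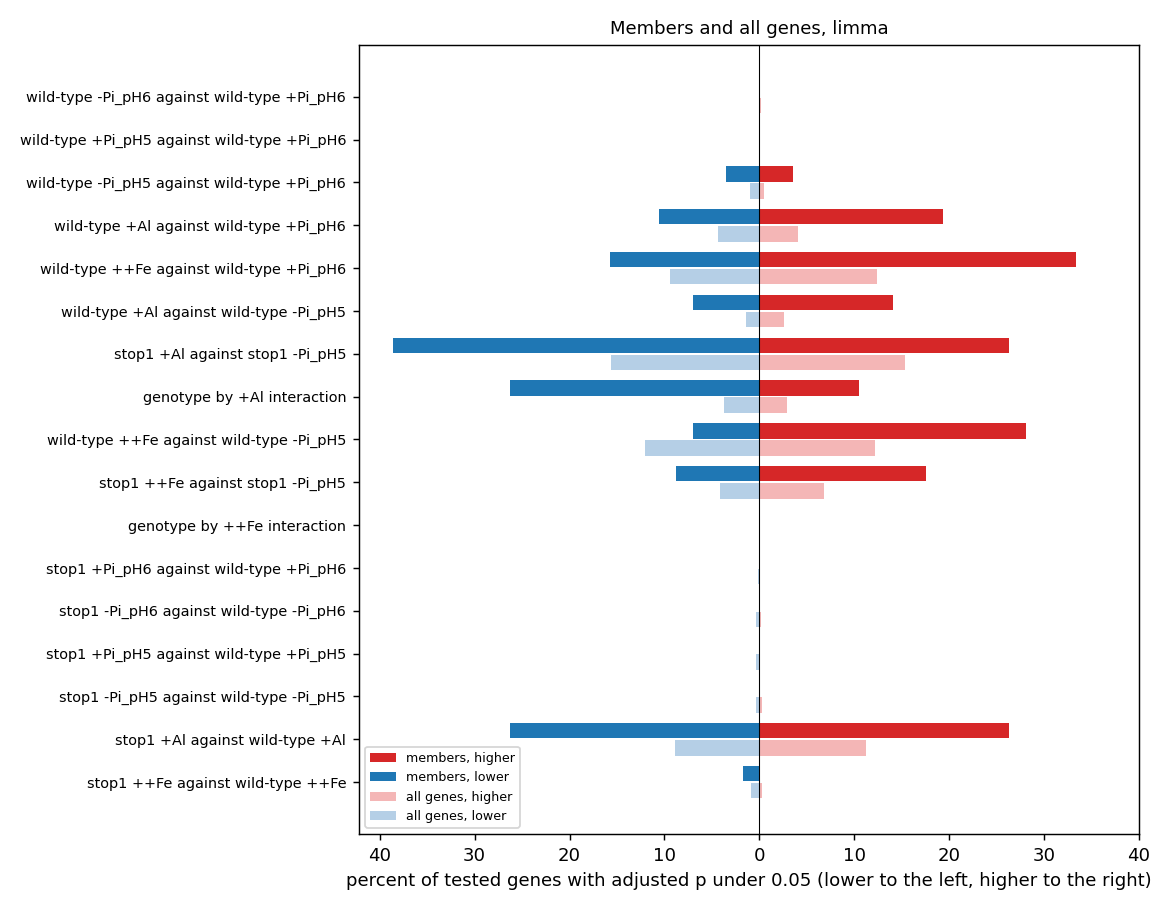
Percent of the 57 peroxidases (dark bars) and of all 20450 genes (light bars) called by limma at adjusted p under 0.05, for each of 17 comparisons, with lower genes to the left of 0 and higher genes to the right. The longest peroxidase bar for lower genes is that of *stop1* +Al against -Pi_pH5 (38.6%), and the longest for higher genes that of wild-type ++Fe against +Pi_pH6 (33.3%).

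Against the control medium, +Al raised 11 members in wild-type and lowered 6, and ++Fe raised 19 and lowered 9. Of all genes, 4.09% rose and 4.37% fell in +Al, and 12.3% rose and 9.38% fell in ++Fe. Leaving out wild-type +Pi_pH6 replicate 2 or +Al replicate 2 took the +Al count from 17 to 8 and 11. PRXCB, a wall peroxidase known for its part in peroxide production in defence and in cell elongation, had the smallest p of the members in both. It was at 99.4 and 98 CPM in the control, at 584 and 982 CPM in +Al and at 1624 and 1667 CPM in ++Fe. The log2 differences were 2.93 ± 0.26 (adjusted p = 1.4e-06) and 4.05 ± 0.26 (adjusted p = 2.2e-08). In ++Fe the log2 difference of PER4 (AT1G14540) was larger, at 4.38 ± 0.46 (adjusted p = 4.8e-06). AT3G03670 and AT3G01190, which had already fallen in -Pi_pH5, were again among the members that fell. Since these media also lack or limit Pi at pH 5, the metals are compared below with -Pi_pH5 of the same genotype.

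Adding Al to -Pi_pH5 raised 8 and lowered 4 of 57 members in wild-type, where 2.63% of all genes rose and 1.37% fell. The risers were 4 of the 14 members grouped by the oxidative burst and defence, 3 of the 7 grouped by lignin, and AT2G35380. AT5G39580, a peroxidase annotated with defence against fungi, went from 9.4 and 14.9 CPM to 50.7 and 183 CPM (log2 difference 2.92 ± 0.48, adjusted p = 0.0015), and its 2 +Al libraries were the widest apart of all members in that group. PER4 (AT1G14540) rose from 0.14 and 1.6 CPM to 6.52 and 12.9 CPM (2.57 ± 0.46, adjusted p = 0.0031). PRXCB rose 3.93-fold in mean CPM, from 199 to 783 (1.92 ± 0.26 on the log2 scale, adjusted p = 0.00026).

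In the lignin group 3 members rose with them. AT1G68850 stood at 22.4 and 18.4 CPM in -Pi_pH5 and at 50.3 and 53.1 CPM in +Al (1.31 ± 0.20, adjusted p = 0.00068). AT2G41480 (PRX25), annotated as acting in lignification, rose from a mean of 14.3 to 33.4 CPM (1.11 ± 0.23, adjusted p = 0.011). PRX52 (AT5G05340), known for lignin synthesis in the stem, went from 2.54 and 0.097 CPM to 5.63 and 11.9 CPM (2.23 ± 0.56, adjusted p = 0.033). AT4G36430 and AT2G35380 completed the 8, with log2 differences of 1.31 and 1.16. Among those that fell was AT5G64120 (PRX71), annotated as acting in cell wall lignification, from 65.6 and 63.6 CPM to 9.42 and 22.5 CPM (-2.07 ± 0.45, adjusted p = 0.013). RHS18 (-1.18 ± 0.27), AT2G39040 (-1.62 ± 0.41) and AT5G64100 (-0.88 ± 0.22) were the others. The groups did not overlap for any of the 12, yet limma called 4 without wild-type -Pi_pH5 replicate 2 and 5 without +Al replicate 2, and 2 when it was fitted to the compared libraries only. Separation of the groups is likely for members called by p on these same libraries, and adds no support. In the same groups the shoot markers summed to 13 to 45.5 CPM in -Pi_pH5 and to 37 to 323 CPM in +Al. The part of the shoot markers in these values was not tested.

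In *stop1* the same addition moved 37 of 57 members, 15 up and 22 down, where 15.4% of all genes rose and 15.6% fell. The median member did not move (log2 difference -0.003, against -0.004 over all genes), since large rises and falls stood side by side. Leaving out any of the 4 libraries left 34 to 35 called. All 8 risers and all 4 fallers of wild-type were also called in *stop1*, and made up 53.3% and 18.2% of the *stop1* calls in their direction. The same overlap was not counted over all genes, so it cannot be read as particular to the peroxidases.

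Peroxidases of the oxidative burst and defence group rose in 7 of 14 cases and fell in 3 in *stop1* +Al. Of all genes, 15.4% rose and 15.6% fell there. PA2 (AT5G06720), a peroxidase annotated with the wound response, was at 1.44 and 1.39 CPM in -Pi_pH5 and at 50.4 and 35 CPM in +Al, a 30.3-fold rise in mean CPM (4.16 ± 0.18, adjusted p = 1.4e-10). AT4G36430 went from 20.5 and 17.8 CPM to 403 and 294 CPM (4.10 ± 0.35, adjusted p = 1.6e-07). PRXCB reached 1756 and 2071 CPM from 145 and 306 CPM (3.17 ± 0.26, adjusted p = 1.3e-07). All 3 were far above every *stop1* library of the 4 media without added metal.

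PER4 rose from 0.72 and 4.11 CPM to 62.3 and 51.5 CPM (4.28 ± 0.46, adjusted p = 1.9e-06). AT5G39580 rose from 10.3 and 25.3 CPM to 241 and 208 CPM (3.71 ± 0.48, adjusted p = 1.4e-05). AT5G06730, the neighbour of PA2 on chromosome 5, went from 7.13 and 6.42 CPM to 79.7 and 67.5 CPM (3.26 ± 0.29, adjusted p = 2.9e-07). AT4G08780 rose less, by 1.08 ± 0.28 (adjusted p = 0.0076). The members of the group that fell were AT2G37130, also annotated with defence against fungi (-1.73 ± 0.26), AT5G64120 (-1.61 ± 0.45) and AT5G64100 (-1.45 ± 0.22).

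Lignin peroxidases rose in 3 of 7 cases and fell in 1, where 15.4% of all genes rose and 15.6% fell. AT5G64120, annotated with lignification, fell but was counted in the defence group. PRX52 had the largest log2 difference of the family, from 2.2 and 0.65 CPM to 121 and 78.2 CPM (5.42 ± 0.56, adjusted p = 1.4e-06). AT1G68850 went from 26.5 and 33.1 CPM to 136 and 131 CPM (2.14 ± 0.20, adjusted p = 3.7e-07), and AT2G41480 from 22.9 and 19.7 CPM to 94.6 and 80.2 CPM (1.99 ± 0.23, adjusted p = 5.3e-06). AT1G05250, whose counts are uncertain, fell by 1.48. Outside the groups, AT5G19880, annotated with the response to ethylene, went from 0.53 and 0.32 CPM to 40.2 and 30.1 CPM (4.65 ± 0.27, adjusted p = 2.7e-09), and AT2G18150 from 11.7 and 8.91 CPM to 116 and 94.3 CPM (3.24 ± 0.38, adjusted p = 5.5e-06). A log2 difference on CPM + 1 understates the change of genes as low as PRX52 and AT5G19880 were in -Pi_pH5.

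**Figure D2:**
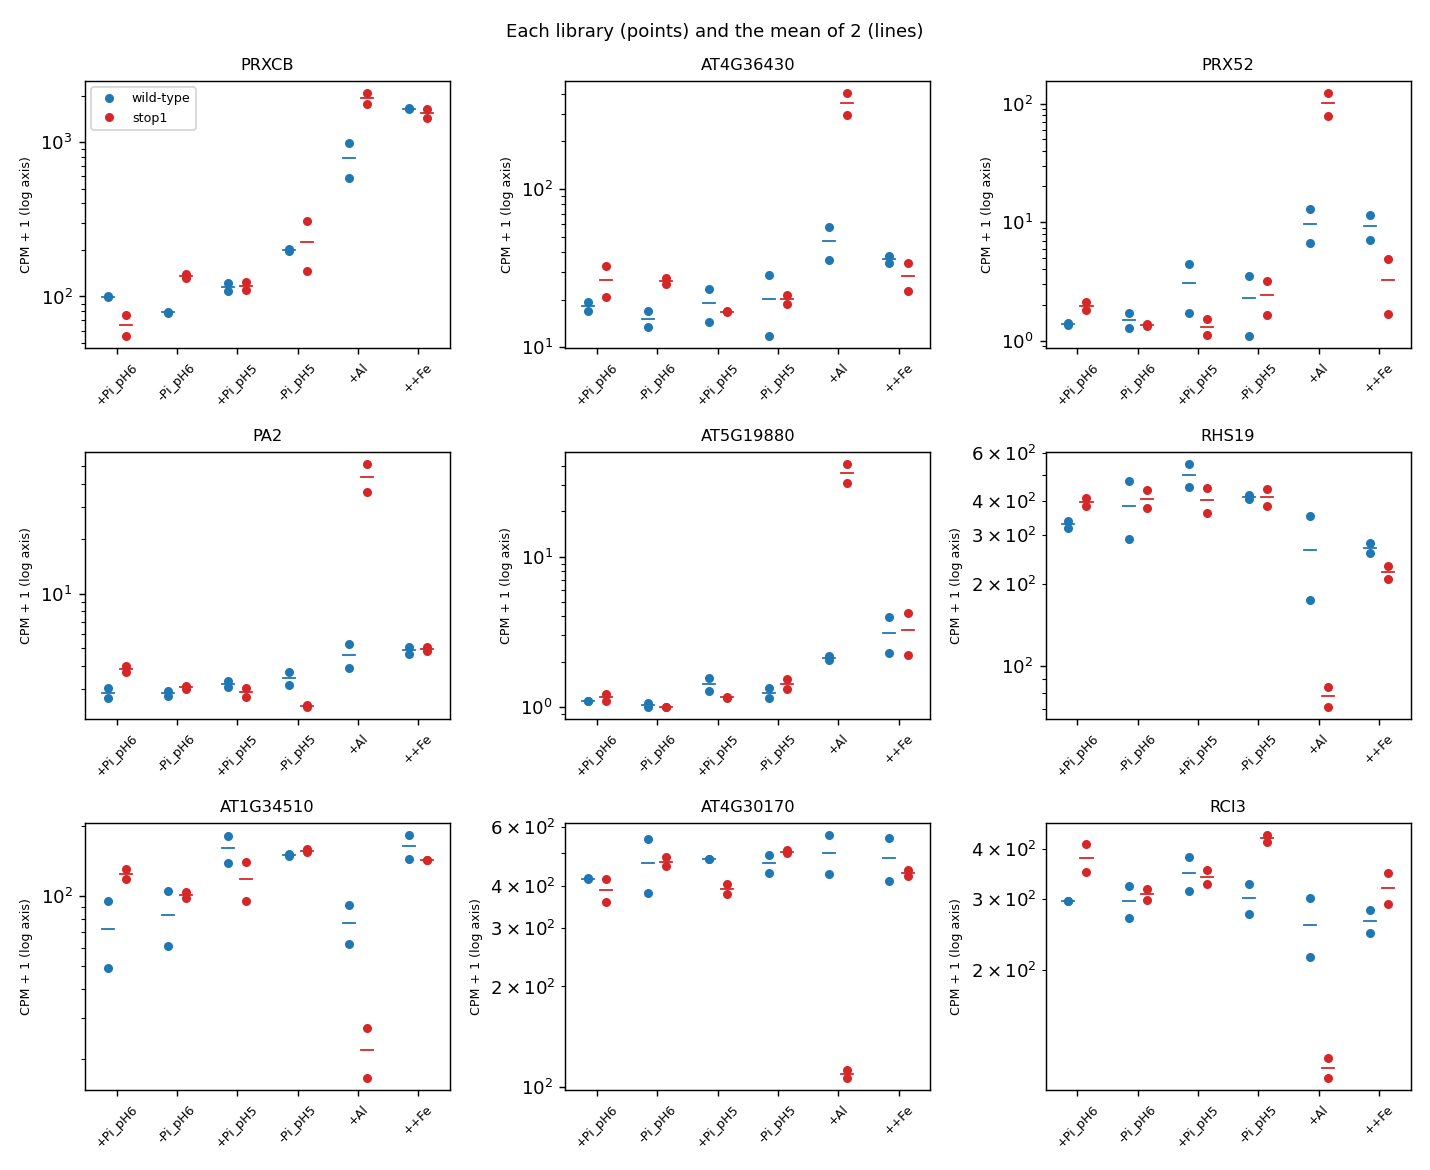
CPM + 1 on a log axis for 9 members in each of the 24 libraries (points, with the mean of 2 as a line), wild-type in blue and *stop1* in red. PRX52, PA2, AT4G36430 and AT5G19880 stand highest in *stop1* +Al, RHS19, AT1G34510, AT4G30170 and RCI3 lowest there, and PRXCB is high in +Al and ++Fe of both genotypes.

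The root hair peroxidases moved the opposite way in *stop1* +Al, where all 7 of 7 fell, beside 15.6% of all genes. Their median log2 difference was -2.42, with a range of -2.87 to -1.64. RHS19 (AT5G67400) was at 383 and 442 CPM in -Pi_pH5 and at 83.2 and 69.9 CPM in +Al (-2.42 ± 0.25, adjusted p = 1.5e-06). AT1G34510 fell from 153 and 157 CPM to 26.3 and 15.6 CPM (-2.87 ± 0.30, adjusted p = 1.8e-06). AT4G26010 went from 316 and 340 CPM to 62.6 and 54.8 CPM (-2.46 ± 0.28, adjusted p = 4.1e-06). In every one of these the 2 +Al libraries lay below all other *stop1* libraries.

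RHS18 fell from 94.7 and 94 CPM to 16.7 and 14.7 CPM (-2.52 ± 0.27), and AT1G30870 from 261 and 261 CPM to 64.4 and 65.7 CPM (-1.99 ± 0.20). AT3G49960 (-1.67 ± 0.22) and AT1G05240 (-1.64 ± 0.49, with uncertain counts) completed the group. In wild-type only RHS18 of these 7 was called in +Al, where the median log2 difference of the 7 was -0.735. Other root hair genes moved too: of a list of 10, 9 fell in *stop1* +Al, where 15.6% of all genes fell, among them the expansins *EXPA7* (-2.11) and *EXPA18* (-2.11) and the transcription factor *RSL4* (-1.52), and their summed level was 289 to 328 CPM in *stop1* +Al against 1116 to 1261 CPM in *stop1* -Pi_pH5. In wild-type +Al only *RSL4* (-0.844) of that list was called, and the median of the list was -0.476, where 1.37% of all genes fell. In bulk root tissue, fewer hair cells and less RNA per hair cell cannot be told apart.

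Of the 4 Casparian strip peroxidases, which polymerise lignin in the endodermal wall, 3 fell in *stop1* +Al. AT4G11290 went from 203 and 190 CPM to 34.2 and 47.5 CPM (-2.26 ± 0.31, adjusted p = 2.5e-05), and RCI3 (AT1G05260), also known as cold inducible, from 432 and 415 CPM to 106 and 119 CPM (-1.90 ± 0.16, adjusted p = 1.6e-07). PER64 (AT5G42180), which is recruited to the Casparian strip domain, fell from 64.3 and 71 CPM to 42.4 and 33.9 CPM (-0.82 ± 0.13, adjusted p = 0.00016). In wild-type, PER64 was at 49.3 and 45.7 CPM in -Pi_pH5 and at 46 and 40.5 CPM in +Al. Unlike AT4G11290 and RCI3, it was not called between the genotypes in +Al. AT5G66390 (PRX72) was at 118 and 132 CPM and then 165 and 170 CPM, a log2 difference of 0.43 that did not pass. Between the genotypes in +Al it was called higher in *stop1*, by 0.717, whereas AT4G11290 and RCI3 were called lower. Of 8 other Casparian strip genes, 4 fell, beside 15.6% of all genes, including *CASP1* (-1.08) and *ESB1* (-0.78). Their summed level was 326 to 358 CPM in *stop1* -Pi_pH5 and 237 to 271 CPM in wild-type -Pi_pH5. Between the genotypes in +Al, 0 of the 8 were called, where 11.2% of all genes were higher and 8.92% lower.

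Members outside these groups that fell were led by AT4G30170, from 509 and 499 CPM to 112 and 106 CPM (-2.21 ± 0.17, adjusted p = 6e-08). AT5G15180 (-2.52 ± 0.24) and AT3G01190 (-2.37 ± 0.26) fell as well. The abundant AT3G32980 went from 2234 and 2513 CPM to 818 and 727 CPM (-1.62 ± 0.21, adjusted p = 1.2e-05). Gene AT5G19890 fell 5.55-fold in mean CPM, from 553 to 99.7, while its neighbour AT5G19880 rose.

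**Figure D3:**
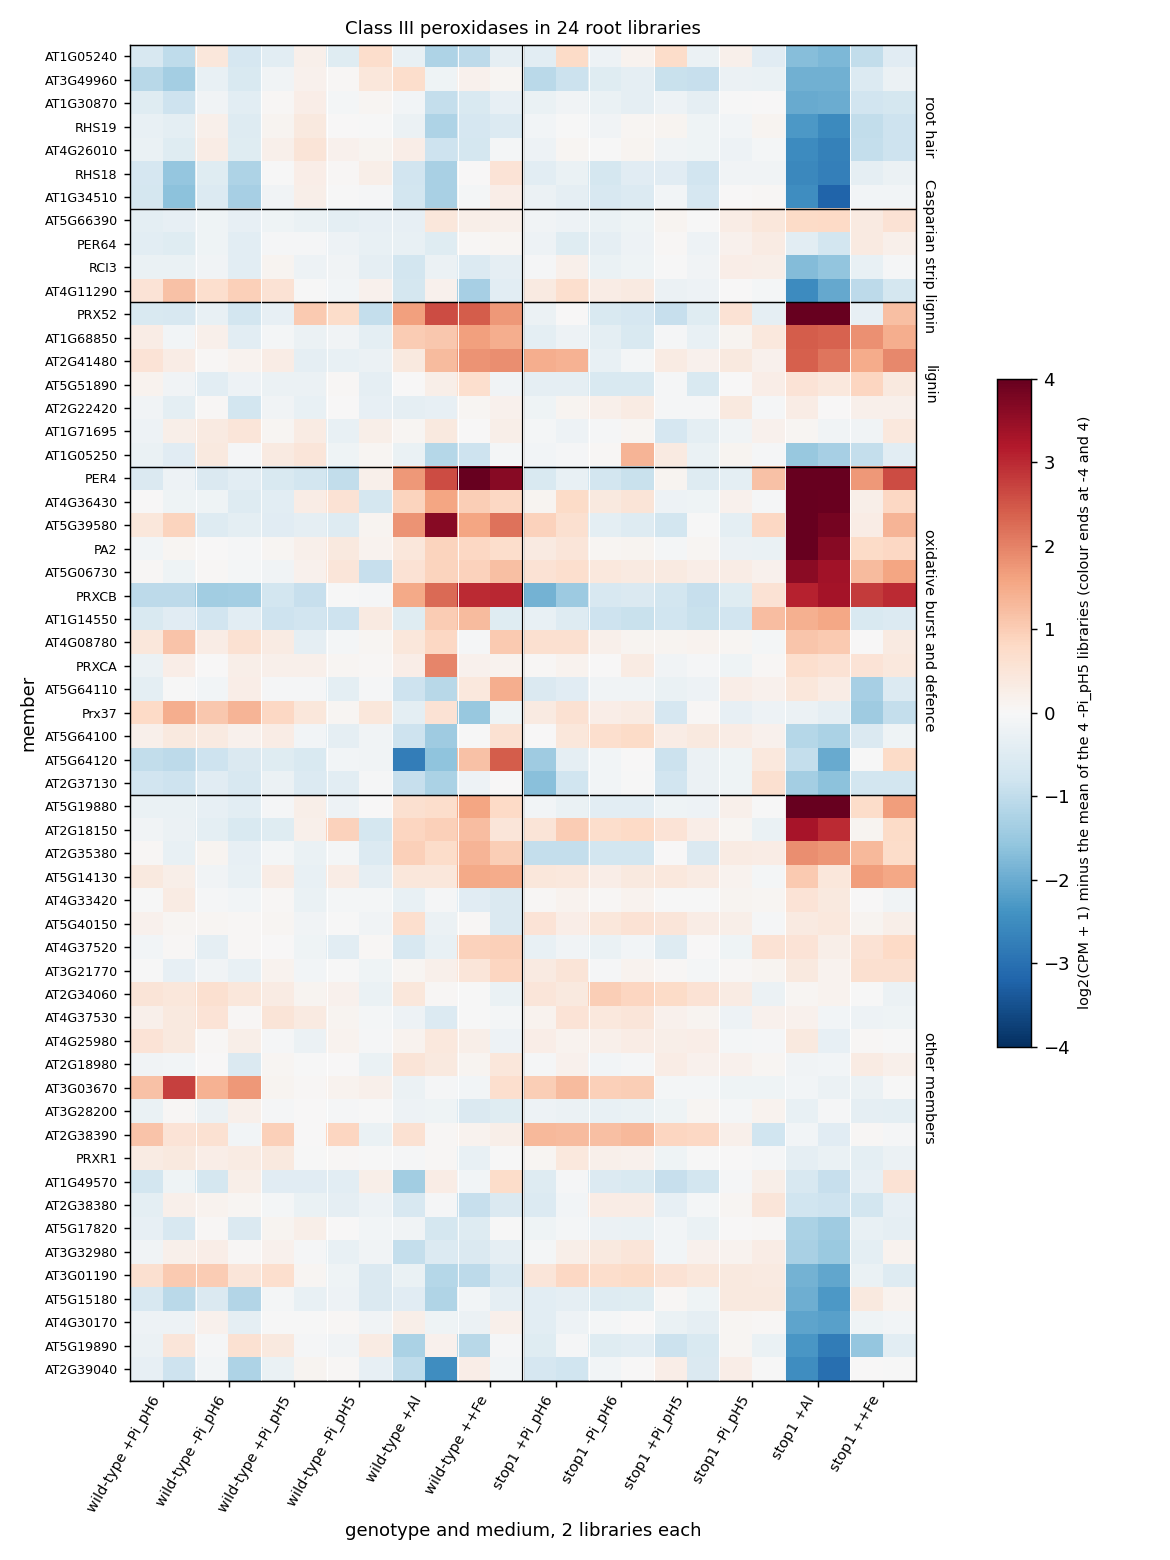
Log2(CPM + 1) of 57 peroxidases (rows, by group) in 24 libraries (columns), each relative to the mean of the 4 -Pi_pH5 libraries, red above and blue below. In *stop1* +Al against *stop1* -Pi_pH5, 7 of 14 defence members were higher and 3 lower, and 3 of 7 lignin members were higher and 1 lower. All 7 root hair peroxidases were lower. Of all genes, 15.4% were higher and 15.6% lower.

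The responses to Al differed between the genotypes in 21 members by the interaction of genotype and Al. The log2 difference was higher in *stop1* for 6 and lower for 15, where 2.89% of all genes were higher and 3.77% lower. The 6 higher were AT5G19880 (3.88 ± 0.38, adjusted p = 1.1e-05), PA2 (3.75 ± 0.25, adjusted p = 2e-07), PRX52 (3.19 ± 0.79, adjusted p = 0.021), AT4G36430 (2.79 ± 0.49, adjusted p = 0.002), AT2G18150 (2.43 ± 0.54, adjusted p = 0.01) and AT5G06730 (2.29 ± 0.41, adjusted p = 0.0023). PRXCB, PER4 and AT5G39580 rose in both genotypes, and the interaction did not pass for them. AT4G30170 was the clearest of the lower members, at -2.30 ± 0.24 (adjusted p = 1.9e-05), with 494 and 436 CPM in wild-type -Pi_pH5 and 566 and 432 CPM in wild-type +Al. Of the 7 root hair peroxidases, 6 were among the 15, from AT4G26010 (-2.05 ± 0.40) to RHS18 (-1.34 ± 0.38), as were RCI3 (-1.66 ± 0.23), AT4G11290 (-1.97 ± 0.44) and PER64 (-0.68 ± 0.19). Leaving out single libraries gave 15 to 23 members. AT3G32980 and AT2G18980 were the least stable, losing their call in 7 and 6 of the 8 omissions, and PRX52 lost its call in 4.

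Compared directly in +Al, 15 members were higher in *stop1* than in wild-type and 15 lower, against 11.2% and 8.92% of all genes. AT5G19880 was at 1.06 and 1.17 CPM in wild-type and at 40.2 and 30.1 CPM in *stop1* (4.08 ± 0.27, adjusted p = 1.5e-08). PA2 was at 2.9 and 4.27 CPM against 50.4 and 35 CPM (3.25 ± 0.18, adjusted p = 1.3e-09). AT4G26010 stood at 436 and 205 CPM in wild-type and at 62.6 and 54.8 CPM in *stop1* (-2.33 ± 0.28, adjusted p = 1.5e-05). For each of the 30 members the 2 groups did not overlap, which is likely for members called on these same libraries and adds no support.

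**Figure D4:**
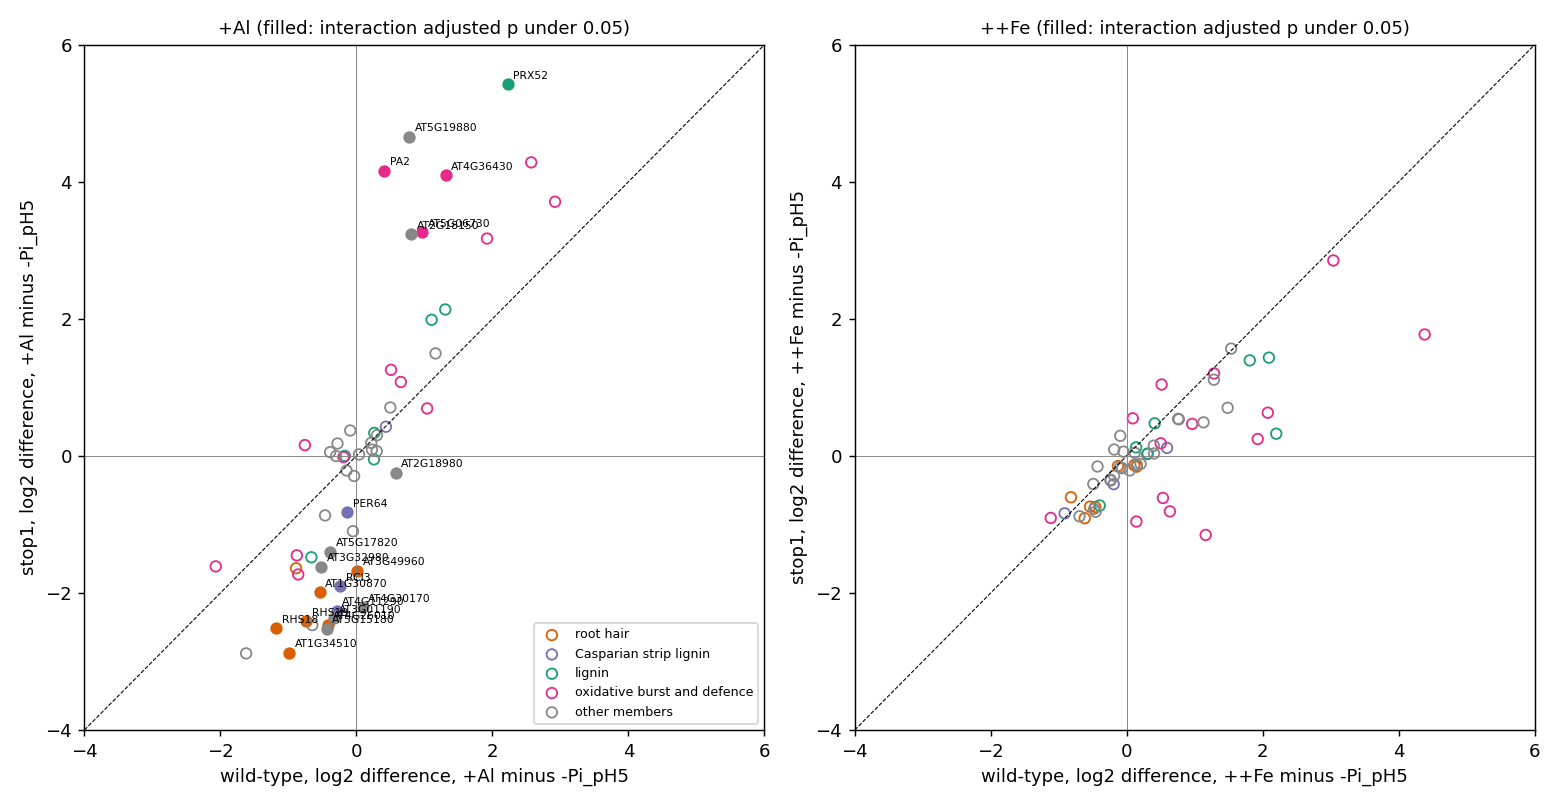
Log2 difference from -Pi_pH5 in wild-type (x axis) and in *stop1* (y axis) for 57 peroxidases, in +Al (left) and ++Fe (right), coloured by group, with filled points where the interaction passed. In +Al 21 points are filled and lie off the dashed line of equal response, and in ++Fe 0 are.

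In wild-type, ++Fe against -Pi_pH5 raised 16 members and lowered 4, where 12.1% of all genes rose and 12.1% fell. The members that rose in wild-type +Al were also called higher here, apart from AT4G36430, an overlap that was not counted over all genes. PER4 had the largest log2 difference, from 0.14 and 1.6 CPM to 44.5 and 27.3 CPM (4.38 ± 0.46, adjusted p = 7e-06), followed by PRXCB, from 201 and 197 CPM to 1624 and 1667 CPM (3.04 ± 0.26, adjusted p = 8.6e-07). AT5G64120 rose from 65.6 and 63.6 CPM to 161 and 382 CPM (1.93 ± 0.45, adjusted p = 0.0058), the reverse of its fall in +Al, and was not called without ++Fe replicate 2 (adjusted p = 0.11).

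The same 3 lignin peroxidases were among the risers. AT2G41480 rose 4.49-fold in mean CPM, to 64.0 CPM (2.09 ± 0.23), AT1G68850 3.62-fold, to 73.9 CPM (1.81 ± 0.20), and PRX52 to 10.5 and 6.11 CPM (2.20 ± 0.56). AT5G14130 (1.54 ± 0.21), AT2G35380 (1.49 ± 0.22) and AT4G37520 (1.13 ± 0.23) rose among the remaining members. The 4 that fell were Prx37 (AT4G08770), known from vascular bundles (-1.12 ± 0.36), AT4G11290 (-0.91 ± 0.31), AT3G28200 (-0.49 ± 0.14) and AT4G33420 (-0.43 ± 0.13). None of the 7 root hair peroxidases was called here. Without wild-type -Pi_pH5 replicate 2 the count was 12, without ++Fe replicate 2 it was 13, and fitted to the compared libraries only it was 9.

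In *stop1*, ++Fe raised 10 members and lowered 5, against 6.76% and 4.16% of all genes. All 10 risers were among the 16 of wild-type, led by PRXCB, from 145 and 306 CPM to 1426 and 1637 CPM (2.85 ± 0.26, adjusted p = 2.2e-06), PER4 (1.77 ± 0.46) and AT5G14130 (1.57 ± 0.21). The overlap with wild-type was not counted over all genes here either. The 5 that fell included RHS19 (-0.91 ± 0.25) and AT1G30870 (-0.74 ± 0.20) of the root hair group and AT2G37130 (-0.96 ± 0.26). Each of the 4 omissions left 7 or 8 members called. RHS19 and AT1G30870 lost their call in all 4, AT2G37130 in 3 and PER4 in 2.

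No member passed the interaction of genotype and Fe in limma, where 0.0244% of all genes did, although 8 had an unadjusted p under 0.05. By edgeR's quasi-likelihood test 0 passed, and 1 each by its likelihood ratio test and DESeq2, and without wild-type ++Fe replicate 1 limma called 2. The smallest p was that of AT5G64110 (-2.31 ± 0.40, adjusted p = 0.051). In ++Fe itself AT5G64110 was the 1 member called between the genotypes, against 1.21% of all genes, with 5.56 and 12.5 CPM in wild-type and 0.96 and 2.35 CPM in *stop1* (-1.87 ± 0.28, adjusted p = 0.0013). That count was 3 without wild-type ++Fe replicate 1.

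Outside the metal media no member was called between the genotypes. Limma called 0 members in each of +Pi_pH6, -Pi_pH6, +Pi_pH5 and -Pi_pH5, where 0.191%, 0.533%, 0.406% and 0.587% of all genes were called. The unadjusted p was under 0.05 for 12, 8, 6 and 13 members. edgeR's quasi-likelihood test called 0 in each, its likelihood ratio test 1, 0, 1 and 1, and DESeq2 3, 1, 1 and 2. Without wild-type +Pi_pH6 replicate 1, -Pi_pH6 replicate 1 and -Pi_pH5 replicate 1, limma called 1, 3 and 1 in the first, second and last of these media. It is uncertain whether the *stop1* +Pi_pH6 and +Pi_pH5 labels are exchanged, since the gene lists published under either name follow the deposited libraries of the other, and the labels were kept. With them exchanged 1 member was called in each, AT3G03670 at pH 6 and AT2G41480 at pH 5. As labelled, AT3G03670 was at 1.63 and 6.77 CPM in wild-type +Pi_pH6 and at 1.32 and 1.79 CPM in *stop1* +Pi_pH6, and at 0.27 and 0.20 CPM against 0.11 and 0.11 CPM in +Pi_pH5. The metal comparisons above do not use these libraries other than for the pooled spread.

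Neighbouring members did not always move together. PA2 and AT5G06730, 919 bp apart, both rose in *stop1* +Al, whereas AT5G19880 and AT5G19890, 1598 bp apart, moved in opposite directions. PER4 and AT1G14550 lie 3216 bp apart, and AT1G14550 was at 0.096 and 3.37 CPM in *stop1* -Pi_pH5 and at 3.99 and 4.46 CPM in +Al, with no call. In the run AT5G64100, AT5G64110 and AT5G64120 on chromosome 5, the outer genes fell in *stop1* +Al and AT5G64110 was at 4.93 and 4.48 CPM and then 5.74 and 5 CPM. Prx37 was at 235 and 258 CPM and then 254 and 233 CPM while AT4G08780 rose. AT2G38380 fell by 1.10 and its neighbour AT2G38390 was at 310 and 156 CPM and then 251 and 199 CPM. Neither AT4G37520 nor AT4G37530 was called there. Annotated genes on the opposite strand overlap 10 members, RHS19, AT4G26010, AT1G30870 and PER64 among them, and the strand setting of the counting is not given in the sources used here.

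Genes that supply the substrates were also followed. Of all genes, 15.4% rose and 15.6% fell in *stop1* +Al, 2.63% and 1.37% in wild-type +Al and 12.1% and 12.1% in wild-type ++Fe, each against -Pi_pH5. Of 8 RBOH NADPH oxidases in the table, 2 rose and 4 fell in *stop1* +Al, with *RBOHB* going from 116 to 9.17 CPM in the mean (-3.50, adjusted p = 6.7e-08) and *RHD2*, the root hair oxidase, from 75.0 to 32.2 CPM (-1.19, adjusted p = 1.1e-05). In wild-type +Al 0 rose and 1 fell, and in wild-type ++Fe 0 rose and 6 fell. Of 17 monolignol synthesis genes, 6 rose and 5 fell in *stop1* +Al (15.4% and 15.6% of all genes), among them *PAL4* (2.60) and *CCR2* (2.59) upwards and *FAH1* (-2.56) downwards. Laccases, the other enzymes that polymerise lignin, rose in 4 and fell in 1 of 16 cases there, beside the same shares of all genes, led by *LAC12* (3.06) and *LAC5* (3.01).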

How the data were processed

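RNA-seq was measured in 24 root libraries, 2 for each of 12 combinations of genotype and medium, grouped by the deposited labels. The authors trimmed the reads, aligned them with HISAT2 2.1.0 to TAIR10, counted them on genes with HTSeq 0.11.2 and normalized them with edgeR 3.28.0. The deposited values are a normalized signal, CPM scaled with TMM factors, and 100% of them were whole reads within 0.01 when divided by the value of 1 read. Each gene has an unscaled CPM over 1 in at least 2 libraries.

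Log2(CPM + 1) was tested with limma 3.58.1 in R 4.3.3, in a model of 12 group means with a trended prior variance, and p-values were adjusted by Benjamini and Hochberg's method across 20450 genes. As alternatives the whole reads were tested with DESeq2 1.42.0 and edgeR 4.0.16, beside other normalizations, a pseudocount of 0.1, a filter on low values, a replicate block, fits to the compared libraries only and leaving out each library. The tests were first tested on simulated data. Intervals and errors cover these libraries only.

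Named members are all those called where a direction holds 12 or fewer, otherwise the 12 with the smallest p, with the 6 most abundant, those with a mean CPM under 1 or no row, and neighbouring pairs. Some of these are given as counts only. The members, groups and lists were chosen with earlier results of these data known. Positions and upstream sequences are from RefSeq TAIR10.1. Protein sequences were not used here.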

Additional observations from a re-analysis of the deposited data

Results flagged for a closer look

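The response to Al differed between *stop1* and wild-type in 21 peroxidases, by the interaction of genotype and Al in limma. The value for each is the log2 difference of +Al from -Pi_pH5 in *stop1* minus that in wild-type. Positive values were found for AT5G19880 (3.88), PA2 (3.75), PRX52 (3.19), AT4G36430 (2.79), AT2G18150 (2.43), AT5G06730 (2.29). Negative values were found for AT4G30170 (-2.30), AT5G15180 (-2.09), AT4G26010 (-2.05), AT3G01190 (-2.04), AT4G11290 (-1.97), AT1G34510 (-1.88), AT3G49960 (-1.69), RHS19 (-1.68), RCI3 (-1.66), AT1G30870 (-1.45), RHS18 (-1.34), AT3G32980 (-1.10), AT5G17820 (-1.01), AT2G18980 (-0.82), PER64 (-0.68). Groups of 2 libraries were too small for a test of single deviating samples.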

How the results depend on the processing

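None of 152 calls of named members changed direction under the alternatives of this paragraph. Of these, limma kept 148 with a pseudocount of 0.1, 152 with RLE normalization, 151 with library size only, 152 with the replicate block and 101 with the compared libraries only, while edgeR's quasi-likelihood test kept 146, its likelihood ratio test 149 and DESeq2 148. With a mean CPM of at least 1, 149 could be tested and 149 were kept. Refits without 1 library kept 540 of 680 calls.

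With the compared libraries only, the count of members called was 1 for -Pi_pH5, 4 for +Al and 18 for ++Fe against the wild-type control, 2 for +Al and 9 for ++Fe against wild-type -Pi_pH5, and 0 between the genotypes in ++Fe. That fit has fewer libraries to estimate the spread. DESeq2 called 5 in +Pi_pH5 and 7 in -Pi_pH5 against the wild-type control, 1 for the Fe interaction, and 3, 1, 1 and 2 between the genotypes in +Pi_pH6, -Pi_pH6, +Pi_pH5 and -Pi_pH5. The likelihood ratio test called 4 in +Pi_pH5, 1 for the Fe interaction, and 1 each between the genotypes in +Pi_pH6, +Pi_pH5 and -Pi_pH5. Library size only gave 1 for the Fe interaction, and exchanging the *stop1* +Pi labels gave 1 in each +Pi medium. The cause of these differences was not tested.

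The replicate block called 2 members in +Pi_pH5 against the wild-type control, 1 for the Fe interaction, 1, 1, 1 and 2 between the genotypes in the 4 media without metal and 2 in ++Fe. Equal replicate numbers were not taken to pair the samples, since not every pair of groups was above 0.1: the correlation of their deviations ran from -0.379 to 0.524 over 66 pairs of groups, with a median of 0.126 and 38 above 0.1.

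Leaving out 1 library gave 0 to 4 members for +Pi_pH5, 1 to 5 for -Pi_pH5, 8 to 17 for +Al and 20 to 25 for ++Fe against the wild-type control. Against -Pi_pH5 it gave 4 to 17 for wild-type +Al, 34 to 35 for *stop1* +Al, 12 to 18 for wild-type ++Fe and 7 to 8 for *stop1* ++Fe. The Al interaction gave 15 to 23 and the Fe interaction 0 to 2. Between the genotypes the counts were 0 to 1 in +Pi_pH6, 0 to 3 in -Pi_pH6, 0 to 0 in +Pi_pH5, 0 to 1 in -Pi_pH5, 26 to 31 in +Al and 1 to 3 in ++Fe.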
